A study of Mus musculus with 8 samples.

Results

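The leukocyte integrins and adhesion molecules described here are 10 genes of the 53819 in the deposited count table, chosen by symbol. They are *Itgal*, *Itgax* and *Itgb2*, *Itga4* and *Itgb7*, *Itga5*, *Itga6* and *Itgb1*, and the ligands *Icam1* and *Vcam1*. All 10 were found in the table, each with a single gene ID. RNA was sequenced from bone marrow-derived macrophages (BMDM) of 4 female BALB/cJ mice aged 8 weeks. Marrow cells were given M-CSF at 25 ng/mL (the growth factor that drives marrow precursors to become macrophages) at plating and again later, and after 5 days they received bilirubin at 2.5 µM or its DMSO vehicle for 48 h. Each mouse gave a vehicle and a bilirubin culture, numbered mouse 1 to mouse 4, so there were 4 libraries a group. By the labels the groups differ only in bilirubin, and the comparison asks what the pigment, a product of heme breakdown, changed in these cells. The sources describe no sorting of the cultured marrow cells, and RNA was measured, not protein at the cell surface.

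Integrins are receptors of paired alpha and beta chains that fix leukocytes to other cells and to matrix, and the partner chains decide the ligand. *Itgb2* encodes CD18, the beta chain that leukocytes share, which pairs with CD11a (*Itgal*) to form LFA-1, with CD11b (*Itgam*) to form Mac-1 and with CD11c (*Itgax*). *Itgb1* is the broad partner of the chains that bind fibronectin (*Itga5*), laminin (*Itga6*) and VCAM-1 (*Itga4*), and *Itgb7* pairs with *Itga4* in gut-homing leukocytes. ICAM-1 (*Icam1*) is an immunoglobulin-type ligand of LFA-1 and Mac-1 and a well-known target of inflammatory signals, and VCAM-1 (*Vcam1*) is the ligand of the *Itga4* pair on activated endothelium.

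Vehicle libraries held 37747315 to 47071714 counts on genes and bilirubin libraries 34142781 to 41054034. The macrophage identity of the cultures was checked with 10 macrophage genes, which summed to 23730 to 24050 CPM (counts scaled for library size by TMM) with vehicle and 27970 to 30090 CPM with bilirubin, most of it *Lyz2*. Of these 10, 3 were higher and 1 lower with bilirubin, and their part in the results was not tested. Other marker lists (neutrophil, T and NK cell, B cell, basophil and mast cell, megakaryocyte, stromal) summed to at most 8.23 CPM in any library, and the endothelial list to 103 to 125 CPM, most of it *Vwf*. Some of these low sums did not overlap between groups. The B cell list summed to 2.45 to 3.03 CPM with vehicle and 1.02 to 2.19 CPM with bilirubin, with *Ighm* lower (adjusted p = 0.0114 by edgeR), and the megakaryocyte list to 3.60 to 3.88 CPM and 2.67 to 3.19 CPM. The basophil and mast cell list summed to 0.0229 to 0.0631 CPM with vehicle and 0.0995 to 1.05 CPM with bilirubin, and the part of these cells in the results was not tested. On the first principal component of all tested genes the vehicle library of mouse 1 lay at -34.1, against -16.5 to -12.3 for the other vehicle libraries. Of 13722 tested genes, 616 (4.49%) were higher and 417 (3.04%) lower with bilirubin in the edgeR quasi-likelihood model of mouse and treatment, at a Benjamini-Hochberg (BH) adjusted p under 0.05; scaled by library size alone these were 527 and 556. The vehicle and bilirubin CPM did not overlap for 10.6% of tested genes, and 7.53% passed the threshold in either direction. In bulk samples, fewer cells of a type and less RNA per cell cannot be told apart.

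Bilirubin-treated BMDM held more *Icam1*, *Itgb2* and *Itgb7* RNA and less *Itga6* and *Itgb1* RNA than vehicle cultures of the same mice. Of the 9 members with enough counts to be tested, 3 were higher (4.49% of all tested genes were) and 2 were lower (3.04% of all). The remaining 4 tested members, *Itgal*, *Itgax*, *Itga4* and *Itga5*, did not pass, and *Vcam1* was too low to test. The 9 had a median log2 fold change of 0.17, against -0.0018 over all tested genes. That median was 0.10 without mouse 2. Without mouse 1, and with no filter on low counts, the barely detected *Vcam1* was tested too, and the medians over 10 members were 0.07 and 0.05. Those medians are thus not of the same 9 genes. CPM did not overlap between groups for 3 of the 9 members, *Icam1*, *Itgb2* and *Itgb1*, beside 10.6% of all tested genes. The change had the same direction in all 4 mice for 5 of 9 members (55.6%), the 5 that passed, and for 28.4% of tested genes. A gene that passes with mouse in the model tends to agree between mice, so this agreement is not separate support for the calls.

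**Figure D1:**
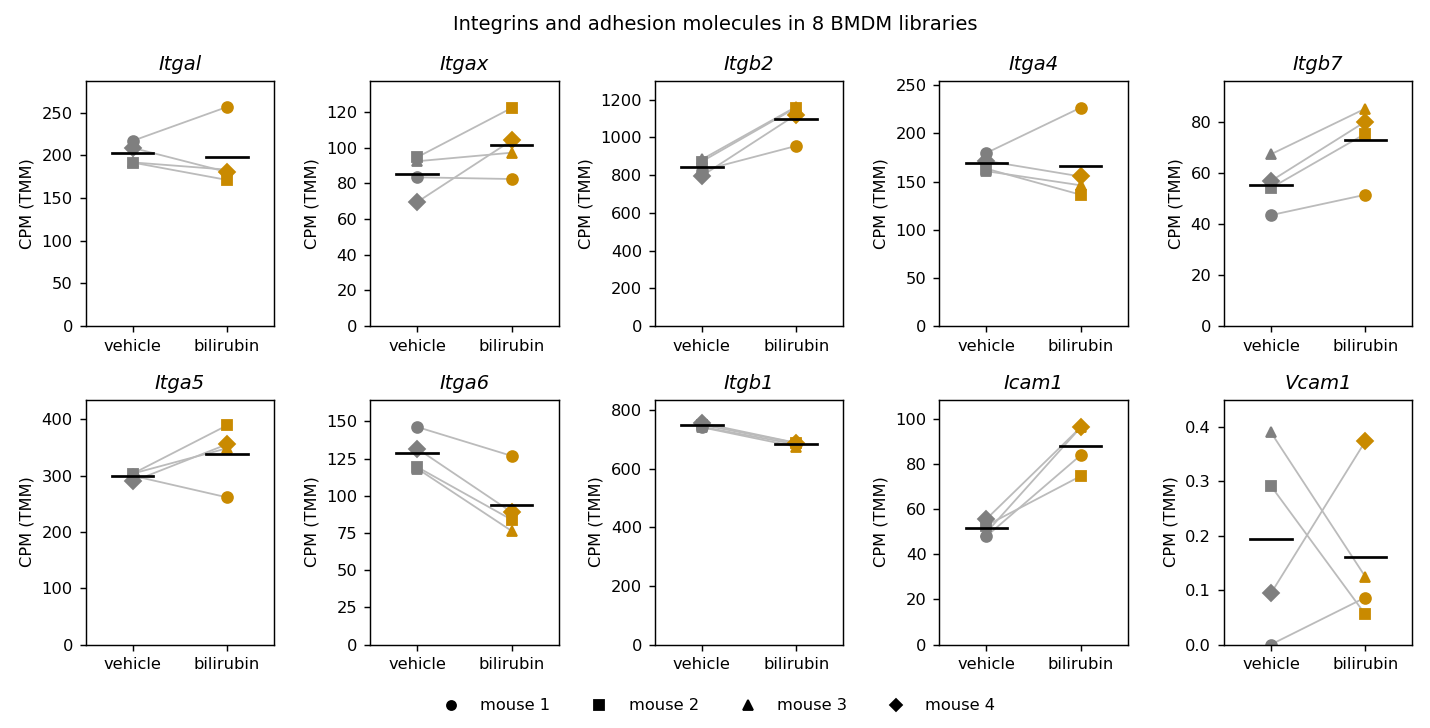
Level of each of the 10 genes (TMM-scaled CPM, linear axis from 0) in the vehicle (gray) and bilirubin (orange) culture of each mouse; lines join cultures of one mouse and black bars are group means. *Icam1* rose from 48.0 to 55.6 CPM with vehicle to 74.7 to 96.3 CPM with bilirubin, and *Itga6* was lower with bilirubin in every mouse although the group ranges overlap.

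The promoter windows of the members that were higher with bilirubin are shown because these genes passed in the same direction. Whether they are regulated together was not tested. Each window is the 250 bases before the start of the most abundant transcript, 5′ to 3′ on the gene's strand. The sequence is the GRCm39 reference, from the C57BL/6J strain and not from BALB/cJ. Capitals mark the NF-κB word defined beneath. The windows lie at chr9:20926422-20926671 (plus strand) for *Icam1*, chr10:77365836-77366085 (plus strand) for *Itgb2* and chr15:102140380-102140629 (minus strand) for *Itgb7*.
Icam1: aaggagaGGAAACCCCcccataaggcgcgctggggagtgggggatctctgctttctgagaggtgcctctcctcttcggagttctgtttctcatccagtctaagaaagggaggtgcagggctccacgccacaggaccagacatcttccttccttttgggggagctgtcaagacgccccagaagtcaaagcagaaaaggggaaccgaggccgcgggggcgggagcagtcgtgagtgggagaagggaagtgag
Itgb2: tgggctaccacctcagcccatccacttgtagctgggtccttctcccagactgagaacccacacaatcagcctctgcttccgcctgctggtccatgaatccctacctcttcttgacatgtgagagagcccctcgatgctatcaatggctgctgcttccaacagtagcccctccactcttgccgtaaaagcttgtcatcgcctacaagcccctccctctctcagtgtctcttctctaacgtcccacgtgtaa
Itgb7: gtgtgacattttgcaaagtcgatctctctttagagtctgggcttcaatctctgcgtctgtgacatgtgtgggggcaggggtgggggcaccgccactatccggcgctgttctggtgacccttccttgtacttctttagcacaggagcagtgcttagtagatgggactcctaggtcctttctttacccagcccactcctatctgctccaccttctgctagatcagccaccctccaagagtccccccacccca

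These windows were searched on both strands for GGNNNTTCC (NF-κB, a factor that inflammatory signals activate), GAGGAAG (PU.1, a myeloid lineage factor) and TGANTCA (AP-1). A match of the NF-κB word can share the letters TTCC with the reverse complement of the PU.1 word. The NF-κB word stood in 3 of the 10 member windows, *Itga4*, *Itga5* and *Icam1*, and in 16.8% of the windows of 13626 tested genes. Its only match in *Icam1* began 243 bases before the start. *Itgal* held the PU.1 word, as did 10.8% of windows, and *Itgax* and *Vcam1* held the AP-1 word, as did 5.16% of windows. In *Itgb2*, *Itgb7*, *Itga6* and *Itgb1* none of the 3 words was present in this window, which says nothing of the factors themselves.

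Among the ligands, *Icam1* (chr9:20926672-20940113, plus strand) changed most of the members tested. Its level was 48.0, 52.7, 49.7 and 55.6 CPM in the vehicle libraries of mice 1 to 4, and 83.9, 74.7, 96.3 and 96.3 CPM in their bilirubin libraries. Every bilirubin library lay above every vehicle library. The log2 fold change was 0.77 (SE 0.067), a 1.70-fold rise, with a BH-adjusted edgeR quasi-likelihood p of 0.000398, and was positive in 4 of 4 mice, from 0.50 in mouse 2 to 0.95 in mouse 3. A noncoding gene on the opposite strand, *Gm47079*, held 0 to 15 counts a library. *Vcam1* (chr3:115903598-115923355, minus strand) held 0, 11, 17 and 4 counts with vehicle and 3, 2, 5 and 15 counts with bilirubin, and was not tested. Its values overlapped between groups and were near the detection limit in all 8 libraries, so a change in *Vcam1* was not detectable at this depth.

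Among the beta chains, *Itgb2* (chr10:77366086-77401542, plus strand), the shared leukocyte chain, was higher with bilirubin. It stood at 824, 872, 884 and 796 CPM in vehicle libraries and at 955, 1158, 1163 and 1121 CPM in bilirubin libraries. The groups did not overlap, and mouse 1 had the lowest bilirubin value. Its log2 fold change was 0.38 (SE 0.046, 1.30-fold), with a BH-adjusted edgeR quasi-likelihood p of 0.00194, and all 4 mice were higher. *Itgb7* (chr15:102124429-102140379, minus strand) had 43.5, 54.2, 67.4 and 56.9 CPM with vehicle and 51.5, 75.4, 85.3 and 80.2 CPM with bilirubin. Each mouse was higher with bilirubin, but the bilirubin library of mouse 1 lay below 3 vehicle libraries, so the groups overlapped. Its log2 fold change was 0.39 (SE 0.050), adjusted p = 0.00238 in the same edgeR test, and without mouse in the model the adjusted p was 0.202.

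*Itgb1* (chr8:129411876-129460618, plus strand), the partner of the matrix-binding chains, was lower by a small and even amount. Vehicle libraries had 744, 751, 742 and 757 CPM and bilirubin libraries 684, 689, 676 and 689 CPM. The groups were narrow and did not overlap. Across mice the log2 fold change was -0.13 (SE 0.029), lower in 4 of 4 mice, with a BH-adjusted edgeR quasi-likelihood p of 0.0352. The *Itgb1* call was lost without mouse in the model (adjusted p = 0.0578), with an offset for transcript length (0.0586), and without mouse 2 (0.129), mouse 3 (0.185) or mouse 4 (0.207), while its log2 fold change stayed between -0.16 and -0.13 over all 12 alternatives.

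Of the alpha chains of *Itgb1*, the laminin-binding *Itga6* (chr2:71575960-71689757, plus strand) fell. Its vehicle libraries had 146, 119, 118 and 132 CPM and its bilirubin libraries 127, 83.9, 76.4 and 89.0 CPM. Mouse 1 had the highest value in both groups, and its bilirubin library lay above 2 vehicle libraries. The estimate was a log2 fold change of -0.48 (SE 0.066), lower in 4 of 4 mice, with a BH-adjusted edgeR quasi-likelihood p of 0.00341, and of 0.0868 without mouse in the model. The fall was -0.21 in mouse 1 and between -0.63 and -0.51 in the others, and without mouse 1 it was -0.57. *Itga6* shares exon sequence with the antisense noncoding gene *Gm17250*, which was not found under that name in the deposited counts, so its level could not be given.

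The fibronectin-binding *Itga5* (chr15:103252713-103275270, minus strand) did not pass. It had 300.0, 304, 304 and 289.8 CPM with vehicle and 262, 389, 349 and 356 CPM with bilirubin. The bilirubin libraries of mice 2 to 4 were above all vehicle libraries and that of mouse 1 was below them. The estimate was a log2 fold change of 0.17 (SE 0.081), adjusted p = 0.304. by the edgeR quasi-likelihood test with BH adjustment *Itga4* (chr2:79085660-79163467, plus strand), the VCAM-1-binding chain, had 179.6, 163, 160.7 and 171 CPM with vehicle and 227, 136, 146 and 155 CPM with bilirubin. Here too mouse 1 stood on the other side of the vehicle range from mice 2 to 4. Its log2 fold change was -0.05 (SE 0.086), adjusted p = 0.808 in the same edgeR test. *Cerkl*, which overlaps *Itga4* on the opposite strand, held 22 to 52 counts a library.

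Of the alpha chains of *Itgb2*, *Itgal* (chr7:126895432-126934320, plus strand), which encodes CD11a, did not pass. It had 217, 192, 192 and 209 CPM with vehicle and 257, 171, 183 and 180.4 CPM with bilirubin. The bilirubin library of mouse 1 was the highest of all 8, and those of the other mice were the lowest 3. The log2 fold change was -0.05 (SE 0.069), adjusted p = 0.764. by the edgeR quasi-likelihood test with BH adjustment *Itgax* (chr7:127728668-127749829, plus strand), which encodes CD11c, had 83.3, 94.6, 92.3 and 69.5 CPM with vehicle and 82.4, 122, 97.1 and 103.97 CPM with bilirubin. Bilirubin libraries of mice 2 to 4 were above all vehicle libraries, and that of mouse 1 was inside their range. Its log2 fold change was 0.25 (SE 0.089), adjusted p = 0.151 in the same edgeR test. *Itgax* and *Itgb7* are abundant in dendritic cells as well, whose 10 markers summed to 0.0631 to 0.259 CPM with vehicle and 0.360 to 0.748 CPM with bilirubin, 8 of them at 10 counts or fewer in every library.

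Mouse 1 moved opposite to the other 3 mice in all 4 members that did not pass. It did so for 4 of 9 tested members (44.4%) and for 18.1% of all tested genes, while mouse 2, 3 or 4 was the odd one for 10.8%, 8.32% and 8.12% of genes and for 0 members. The log2 fold change in mouse 1 was 0.24 for *Itgal* and 0.34 for *Itga4*, against -0.21 to -0.07 and -0.26 to -0.14 in mice 2 to 4. It was -0.20 for *Itga5* and -0.02 for *Itgax*, against 0.20 to 0.36 and 0.07 to 0.58. Without mouse 1, all 4 passed in the same edgeR test, with *Itga5* at 0.28 (adjusted p = 0.000371), *Itgax* at 0.34 (0.0107), *Itga4* at -0.18 (0.00623) and *Itgal* at -0.15 (0.0191). Mouse 1 was singled out here from the values of these same genes, in which the other mice share a direction. These p-values are thus a description and not a test of the changes. Members past the threshold were then 5 higher and 4 lower of 10, since *Vcam1* entered the test and did not pass. Calls over all genes grew as well, from 616 higher and 417 lower of 13722 tested to 1026 higher and 884 lower of 13758. The bilirubin library of mouse 1 was the shallowest and its vehicle library the deepest; the part of depth in this was not tested.

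**Figure D2:**
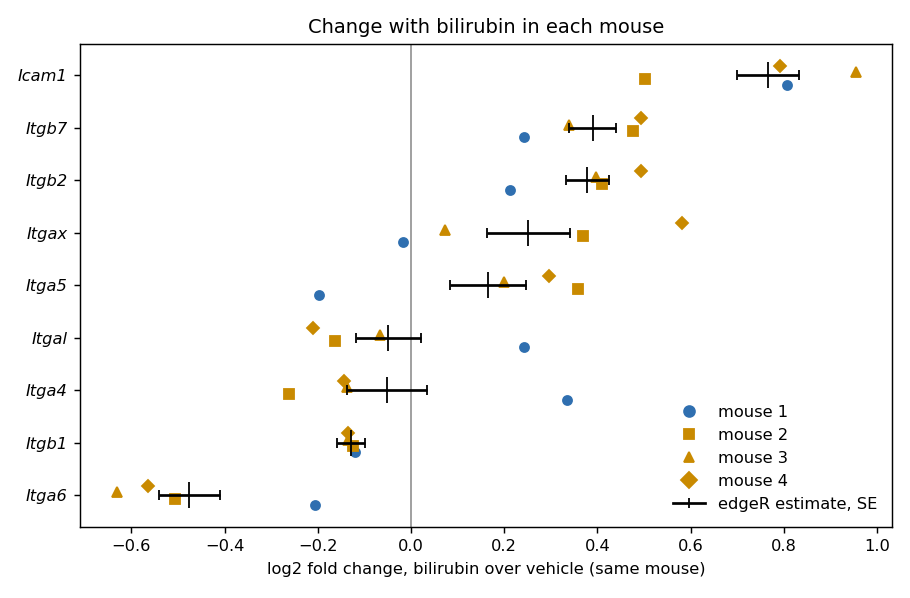
Log2 fold change of bilirubin over vehicle in each mouse (mouse 1 in blue) for the 9 tested members, with edgeR's estimate and its standard error in black. The 5 members past the threshold have all 4 mice on one side of 0, and in *Itgax*, *Itga5*, *Itgal* and *Itga4* mouse 1 lies on the other side from mice 2 to 4.

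Compared per length of transcript (TPM, which divides reads by length before scaling for depth), *Itgb2* was the most abundant member and *Vcam1* the least in both groups. Vehicle cultures had 504 ± 21.0 TPM (SD, n = 4) of *Itgb2*, 327 ± 3.48 of *Itgb1*, 113 ± 2.23 of *Itga5*, 71.0 ± 5.94 of *Itgal* and 58.3 ± 6.87 of *Itga6*. Lower TPM were found for *Itgb7* (36.3 ± 7.82), *Itgax* (35.1 ± 4.88), *Icam1* (33.99 ± 2.11), *Itga4* (28.0 ± 1.36) and *Vcam1* (0.111 ± 0.0794). In that order *Itgal* and *Itga6*, *Itgb7* and *Itgax*, and *Itgax* and *Icam1* had overlapping ranges, and the other neighbours did not.

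With bilirubin the first 4 places held the same members, at 622 ± 42.3 TPM for *Itgb2*, 289 ± 8.76 for *Itgb1*, 125 ± 15.3 for *Itga5* and 66.7 ± 16.4 for *Itgal* (SD, n = 4). *Icam1* stood at rank 5 with 56.1 ± 6.57 TPM, from rank 8 with vehicle, and *Itga6* at rank 7 with 41.1 ± 11.5 TPM, from rank 5. *Itgb7* had 46.98 ± 8.04 TPM, *Itgax* 40.4 ± 5.31, *Itga4* 26.7 ± 7.69 and *Vcam1* 0.142 ± 0.0883. From *Itgal* down to *Itga4* every neighbour overlapped the next, so the order within that stretch is not set by these libraries.

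**Figure D3:**
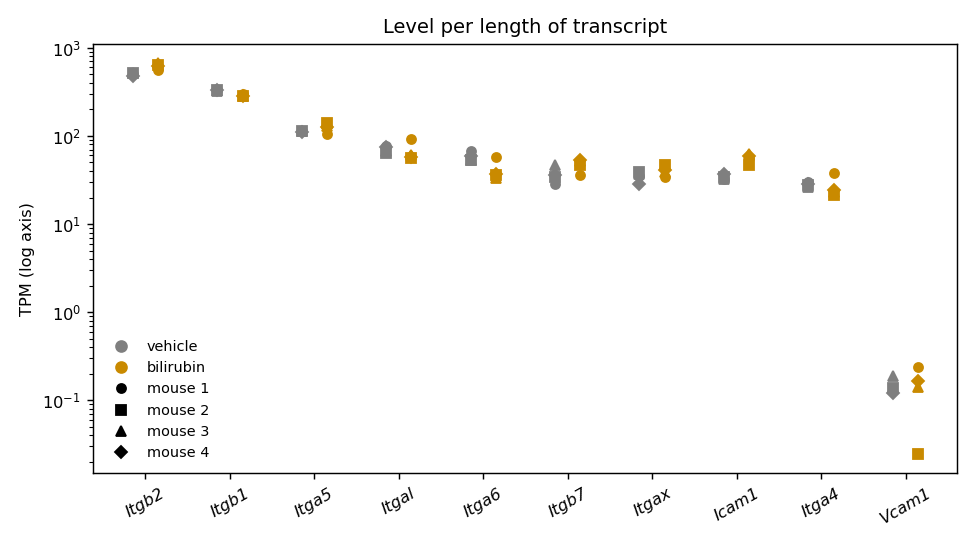
Abundance per transcript length (TPM, logarithmic axis) of the 10 members in each library, vehicle in gray and bilirubin in orange, ordered by the vehicle mean; the vehicle library of mouse 1 has no *Vcam1* point because its value was 0. *Itgb2* and *Itgb1* lead in both groups, and *Vcam1* lies below 0.24 TPM in every library.

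Alpha chains were then set against a beta partner, and the beta chains *Itgb7* and *Itgb1*, alternative partners of *Itga4*, against each other, as TPM ratios within each library. The ratio of *Itgb7* to *Itgb1* was 0.111 ± 0.0253 with vehicle and 0.163 ± 0.0319 with bilirubin (SD, n = 4), a log2 difference of 0.55 ± 0.21 that was positive in 4 of 4 mice. *Itga6* to *Itgb1* was 0.178 ± 0.0198 with vehicle and 0.141 ± 0.0347 with bilirubin, a log2 difference of -0.36 ± 0.18 that was negative in 4 of 4 mice. For both ratios the exact two-sided permutation p was 0.13, the smallest that 4 pairs allow, so no ratio could reach the threshold. All 7 computed ratios overlapped between groups.

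The other 5 ratios did not have 1 direction in the 4 mice. *Itgal* to *Itgb2*, the chains of LFA-1, had a log2 difference of -0.41 ± 0.35 (exact permutation p = 0.25), lower in 3 mice and at 0.08 in mouse 1. *Itga4* to *Itgb7* had -0.48 ± 0.40 (exact permutation p = 0.25), lower in 3 mice, and *Itga5* to *Itgb1* had 0.32 ± 0.22 (exact permutation p = 0.25), higher in 3 mice. *Itgax* to *Itgb2* had -0.09 ± 0.19 and *Itga4* to *Itgb1* 0.07 ± 0.29, both within the spread between mice. A ratio of *Icam1* to *Vcam1* could not be formed where *Vcam1* was 0.

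**Figure D4:**
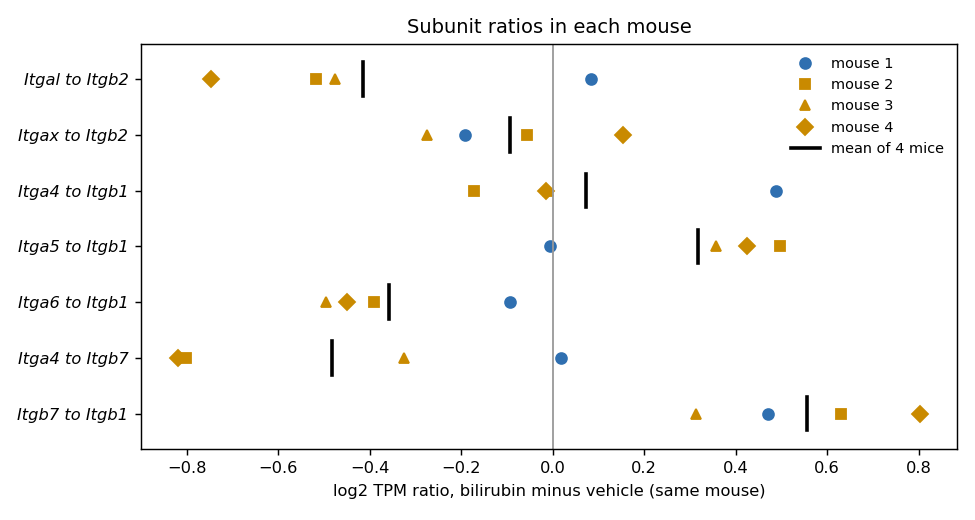
Difference between bilirubin and vehicle in the log2 TPM ratio of an alpha chain to its beta partner, and of the beta chains *Itgb7* to *Itgb1*, in each mouse (mouse 1 in blue), with the mean of 4 mice as a black bar. *Itgb7* to *Itgb1* is above 0 and *Itga6* to *Itgb1* below 0 in every mouse, and the other ratios fall on both sides.

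Salmon's transcript estimates give the forms behind these genes. In 7 of the 9 tested members a single transcript held most of the TPM, and *Itga6* and *Itgal* were split. The *Itga6* forms differ in the cytoplasmic tail of the laminin receptor, which the A form takes from an exon that the B form skips. Coding parts of both tail exons are shown because they tell the forms apart, from GRCm39 chr2:71683878-71683982 (A tail) and chr2:71686198-71686356 (B tail), plus strand, with capitals on the codons of the membrane-proximal GFFKR motif that alpha chains share. Both carry the motif, and they differ after it.
Itga6 A tail: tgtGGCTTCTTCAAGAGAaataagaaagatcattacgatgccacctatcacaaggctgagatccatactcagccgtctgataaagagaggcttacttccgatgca
Itga6 B tail: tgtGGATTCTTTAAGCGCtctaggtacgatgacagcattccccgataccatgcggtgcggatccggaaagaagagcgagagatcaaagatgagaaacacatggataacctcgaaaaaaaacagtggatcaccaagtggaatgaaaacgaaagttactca

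The A transcript made up 47.7% ± 6.58 of *Itga6* TPM with vehicle and 50.4% ± 3.62 with bilirubin (SD, n = 4), and the B transcript 10.1% ± 5.32 and 8.49% ± 4.54. Each share was higher with bilirubin in 2 mice and lower in 2. A 3-exon fragment without an annotated reading frame took 40.9% ± 2.25 and 39.3% ± 0.676. The most abundant *Itgal* transcript held 41.0% ± 4.31 of *Itgal* TPM with vehicle and 36.8% ± 2.07 with bilirubin, and the next 24.3% ± 5.02 and 30.9% ± 0.591, higher in 3 of 4 mice. A further *Itgal* transcript, which has no entry in GENCODE M39, held 12.1% ± 4.79 with vehicle and 16.3% ± 4.12 with bilirubin, higher in 3 of 4 mice. The 2 most abundant forms differ by 3 bases at the end of an exon. These bases are shown in capitals at GRCm39 chr7:126916509-126916538, plus strand, and are present in the most abundant form.
Itgal: gaagaaggaacaccaagggaccaaaagGTG
So close a pair rests on reads across that junction, and the split between the forms is an estimate. Shares were not tested.

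Other genes of leukocyte adhesion were counted in 5 hand-made lists, of which 89 genes were tested, 12 were higher (4.49% of all tested genes were) and 10 lower (3.04% of all). Among 10 other integrin chains 2 were higher and 3 lower, with a median log2 fold change of -0.25. That median was -0.46 without mouse 1 and -0.13 without mouse 4. Other filters changed which chains were counted, with a median of -0.01 over 17 chains with no filter. With a filter on CPM above 1 in 4 libraries it was -0.49 over 7 chains. *Itgam*, the Mac-1 partner of *Itgb2*, went from 849 ± 14.1 to 1018 ± 52.5 CPM (SD, n = 4; log2 fold change 0.26, SE 0.036, adjusted p = 0.00356 by the edgeR quasi-likelihood test with BH adjustment). The vitronectin receptor chains were lower, *Itgav* at -0.59 (SE 0.049, adjusted p = 0.000294 by edgeR) and *Itgb5* at -0.49 (SE 0.059, adjusted p = 0.00187 by edgeR), as was *Itgb3*, whose call held in 8 of 12 alternatives. The collagen-binding *Itga1* was higher at 0.64 (SE 0.081, adjusted p = 0.00231 by edgeR), and at 0.41 with an offset for transcript length it no longer passed (adjusted p = 0.246 by edgeR).

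Of 12 tested ligands other than *Icam1* and *Vcam1*, 1 was higher and 2 lower, with a median of -0.27. *C3*, the complement component whose cleaved form is bound by Mac-1 and CD11c, went from 15.6 ± 1.05 to 132 ± 38.5 CPM (SD, n = 4; log2 fold change 3.05, SE 0.12, adjusted p = 1.3e-05 by the edgeR quasi-likelihood test with BH adjustment). The matrix ligands *Thbs1* (thrombospondin-1, -1.28, SE 0.064) and *Spp1* (osteopontin, bound by the *Itga4* and *Itgav* receptors, -0.60, SE 0.069) were lower, and all 3 genes had the same direction in 4 of 4 mice.

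Of 23 tested activators and adaptors, which switch integrins between resting and binding states, 1 was higher and 3 lower, with a median of 0.04. *Rasgrp3*, an exchange factor for Rap and Ras, was lower at -1.07 (SE 0.094), *Apbb1ip*, the Rap effector RIAM, at -0.28 (SE 0.034) and *Cyth1*, cytohesin-1, which binds the CD18 tail, at -0.18 (SE 0.040), while *Cd47*, a partner of several integrins, was higher at 0.32 (SE 0.036). The *Cyth1* call held in 7 of 12 alternatives, being lost without mouse in the model and without mouse 2, 3 or 4, and with an offset for transcript length its log2 fold change turned to 0.01. Of 27 tested signalling and adhesion-complex genes, 5 were higher and 2 lower, with a median of 0.03 that was -0.0008 when scaled by library size alone. The Src-family kinases that act beneath *Itgb2* led, with *Fgr* at 1.72 (SE 0.075) and *Src* at 1.39 (SE 0.087), followed by *Syk* at 0.22 (SE 0.033), which did not pass without mouse 3 (adjusted p = 0.0666 by edgeR) or mouse 4 (0.0586). Other calls there included *Vasp*, higher, and *Parvb* and *Arhgef7*, lower, which passed in 9, 8 and 7 of 12 alternatives.

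Of 17 tested selectins, selectin ligands and other adhesion molecules, 3 were higher and 0 lower by edgeR, with a median of -0.09. An unadjusted p under 0.05 was held by 10 of the 17 and by 2851 of all 13722 tested genes. DESeq2 also called 3 higher and 0 lower, but 1 was higher without mouse in the model and without mouse 2, 3 or 4, and 2 with library size alone or a length offset. Without mouse 1, 4 were higher and 1 lower. The 3 called with all mice and mouse in the edgeR model were *Emb* (embigin) at 0.36 (SE 0.035), the junction protein *Esam* at 0.81 (SE 0.13) and *L1cam* at 0.15 (SE 0.036), and the *Esam* groups overlapped.

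**Figure D5:**
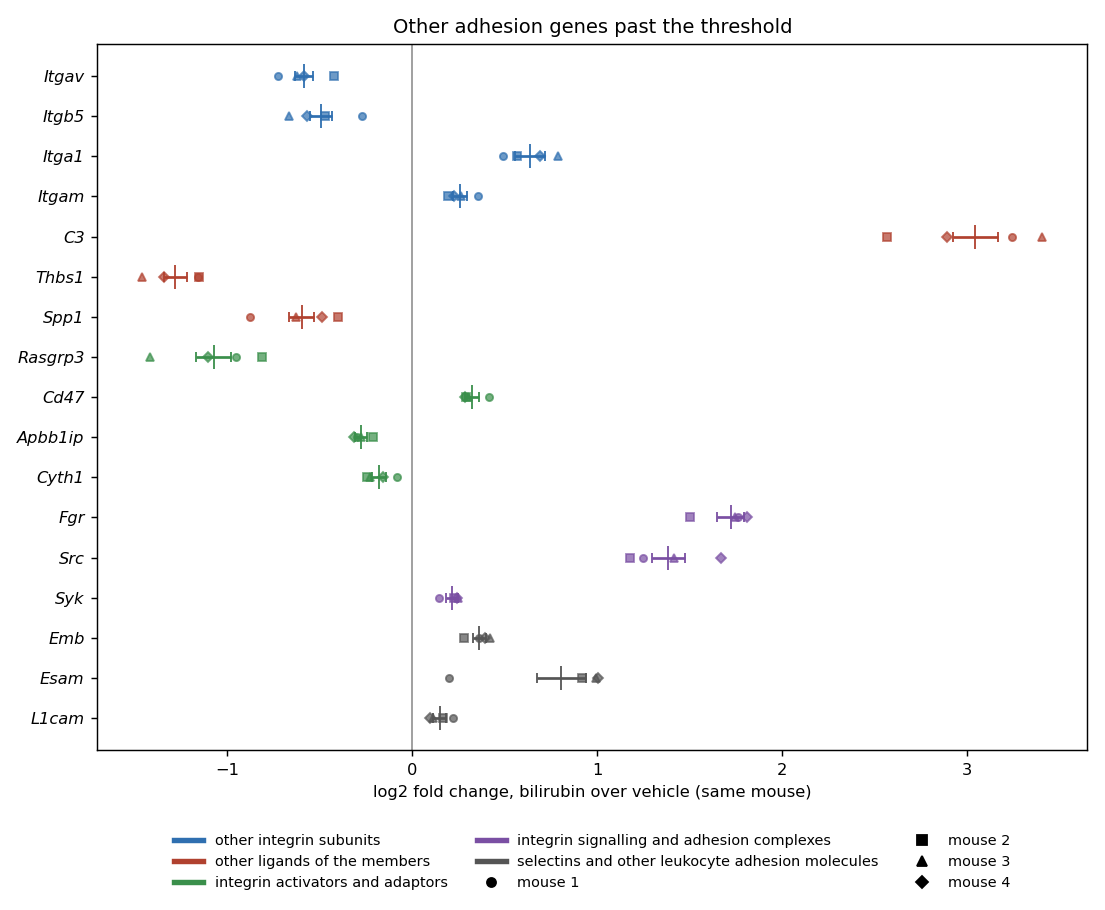
Log2 fold change of bilirubin over vehicle for 17 genes of the 5 adhesion lists that passed the threshold with the smallest adjusted p (up to 4 a list), with edgeR's estimate and standard error as ticks and each mouse as a point. *C3* stands farthest to the right at 3.05, the kinases *Fgr* and *Src* follow, and *Thbs1* and *Rasgrp3* lie farthest to the left.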

How the data were processed

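RNA was measured in 8 poly-A libraries, 4 vehicle and 4 bilirubin, grouped and paired by the labels' mouse number, which the study also used as a covariate. Deviations of same-numbered libraries from their group means correlated at 0.108, 0.134, 0.108 and -0.005 for mice 1 to 4, against at most 0.075 for different numbers. The submitters' processing notes list bcl2fastq 2.20.0.422, Trim Galore 0.6.7, cutadapt 3.4, STAR 2.7.9a, Salmon 1.10.1 and the GRCm39 build. The authors deposited a table of Salmon's estimated counts per gene, not scaled, and each library's transcript estimates. The deposited transcript files also hold TPM, which the authors' quantification scaled for length and depth.

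Rounded counts went into edgeR 4.0.16 under R 4.3.3 (TMM, filterByExpr with at least 10 counts, mouse and treatment in a quasi-likelihood model, Benjamini-Hochberg adjustment over 13722 genes). With mouse in the model, differences in level between mice are taken out. The p-values then weigh the change with bilirubin against how much it varied between these 4 mice, with a spread estimated partly from all tested genes. Alternatives used limma 3.58.1, DESeq2 1.42.0, other scaling, filters and offsets, and each mouse left out. In simulated data for this comparison over 13550 genes, edgeR recovered 61% of genes changed by 0.5 and 81% of those changed by 1 on the log2 scale, with 9.55% of its calls false at an adjusted p under 0.05. The simulated counts had 200 changed genes and no mouse effects, so these rates need not hold for the real libraries. Annotation came from GENCODE M39. The members, lists and tests were chosen with earlier results of these data known. All members are named, and from each list the up to 4 genes past the threshold with the smallest adjusted p; *Itgb3*, *Vasp*, *Parvb*, *Arhgef7* and *Ighm* were named after their values were seen. The result of 1 list gene is not reported here. A protein table and raw reads were not used here, and counting by strand is not given in the sources used here.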

Additional observations from a re-analysis of the deposited data

Results flagged for a closer look

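The *Itgal* level in the bilirubin culture of mouse 1, 256.7 CPM, stood apart from the other 3 bilirubin libraries, which lay between 171 and 183 CPM. Its gap to the nearest library was 0.859 of the group's range, above Dixon's critical value for 4 samples. Of 20 groups examined in this way, 1 was marked, and chance marks about 1 in 20.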

How the results depend on the processing

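*Icam1* and *Itgb2* kept their direction and call under all 12 alternatives. With no replicate block (mouse taken out of the model, so that the cultures were not paired), 2 members were higher and 0 lower, since *Itgb7*, *Itga6* and *Itgb1* no longer passed (5 of 9 members were at an unadjusted p under 0.05), and 458 genes were higher and 228 lower over the whole table. With no filter 5 of 10 members were higher and 2 lower, beside 918 genes higher and 774 lower of 26021 tested. With an offset for transcript length 3 of 9 members were higher and 1 lower, beside 372 genes higher and 207 lower of 13722 tested, and *Cyth1* turned to 0.012. Leaving out 1 mouse at a time gave 3 to 5 members higher and 1 to 4 lower, 8 to 17 list genes higher and 6 to 18 lower, and 265 to 1026 genes higher and 112 to 884 lower over the whole table; the highest counts came without mouse 1. *Itga4* lay at 0.018 without mouse 2 and -0.18 without mouse 1, and *Itgal* at 0.0057 without mouse 4 and -0.15 without mouse 1, of which those without mouse 1 passed. Of the list genes named by rule, *Itga1* passed in 11 of 12 alternatives, *Syk* in 10, *Esam* in 8, *Cyth1* in 7 and *L1cam* in 6. The cause of these shifts was not tested. Depth limits *Vcam1*, with at most 17 counts in a library.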
